A study of Mus musculus with 10 samples.

Results

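Aminoacyl-tRNA synthetases attach each amino acid to its tRNA, the step that decides which residue a codon stands for. The cytosol and the mitochondria each use a set of their own, and nearly all mitochondrial enzymes are encoded in the nucleus by separate genes whose symbols end in 2. Glycine and lysine are exceptions, since 1 gene (Gars1 or Kars1) serves both compartments, and mitochondria make Gln-tRNA through the glutamyl enzyme Ears2 and an amidotransferase. In the cytosol, several of the enzymes are held together in the multi-synthetase complex, and skeletal muscle, which has a high demand for protein synthesis and for mitochondrial translation, depends on both sets.

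The synthetases were chosen by gene symbol, and the symbols of the naming rule were met by 38 genes of the 21160 in the table, 21 of them cytosolic (Gars1 and Kars1 included) and 17 mitochondrial. Gastrocnemius (GAS) RNA came from male wild-type C57BL/6J mice made obese on a high fat diet (DIO mice) from 9 weeks of age. After 9 weeks of the diet, 5 mice received the anti-miR-22 antisense oligonucleotide (ASO, RES-010) under the skin at 10 mg/kg once a week for 14 weeks, and 5 control mice (CTRL) received saline in its place. All 10 mice stayed on the diet, so the comparison holds within obesity and says nothing about lean muscle. The table counts read pairs on the last stretch, at most 500 bp long, of each annotated 3′UTR, called a segment here. A gene's level is the sum over its segments, of which the 38 genes have 117.

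The library totals were between 1606909 and 2116720 counts in CTRL and between 2239186 and 2632560 with the ASO, and no control library was as deep as any treated one. Levels are CPM, the counts scaled to the TMM-adjusted library size, and adjusted p-values come from the quasi-likelihood test of edgeR, adjusted by Benjamini-Hochberg over all 7819 genes that passed the filter on low counts. Muscle transcripts were abundant in every library, as the summed CPM of 12 myofiber markers shows, which was 47982 to 94104 in CTRL and 98289 to 152608 with the ASO, with Ckm and Tnnc2 higher among 5 tested and Mylpf and Tnnt3 at 0. The summed levels of macrophage, adipocyte, endothelial, fibroblast, Schwann cell, blood and T cell markers overlapped between the groups. Of these, 2 of 7 macrophage markers tested (Mrc1 and C1qc) and 1 of 5 fibroblast markers (Lum) were lower. Over all genes 11.7% were higher and 17.5% lower. In limma-voom 0 macrophage markers were lower, and in DESeq2 2 were. The part of these marker shifts in the values that follow was not tested. In whole muscle, fewer cells of a type and less RNA per cell cannot be told apart. miR-22 itself is not among the features used here, so the labels could not be checked against the target of the ASO.

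Of the 38 synthetases, 27 passed the filter and were tested, 17 cytosolic and 10 mitochondrial. The 4 genes Fars2, Kars1, Mars1 and Tars1 had 0 counts in all 10 libraries, and of these Kars1, Mars1 and Tars1 have no base in their segments that another segment does not also cover. Fars2 has 504 bases of its own, but 500 of them lie in a segment far past the end of its canonical transcript. The 0 of these 4 genes therefore does not show that the enzymes are silent. Another 7, of which 6 are mitochondrial, were too low to test. Among them, Pars2 had 4 counts over the 10 libraries together, Mars2 21, Lars2 35, Aars1 44, Rars2 73 and Nars2 78. Aars1 has only 28 bases that no other segment covers, Pars2 4 and the main segment of Lars2 2. The few counts of Aars1, Pars2 and Lars2 therefore do not show low expression.

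Summed over the group, the synthetases stood at like levels in treated and control muscle. The summed level of the cytosolic enzymes was 1801 ± 94.2 CPM for CTRL and 1777 ± 101 CPM after the ASO (SD, 5 libraries each), and that of the mitochondrial enzymes 348 ± 36.3 and 339 ± 29.5 CPM. Both sums overlapped between the groups, while single enzymes moved in both directions. The sums join exonic and intronic segments, which moved apart as described below. Like sums therefore do not mean that every part of the messages was level. With the ASO, 6 synthetases were higher, against a background of 11.7% of all genes, and 5 were lower, against 17.5%. These are 22.2% and 18.5% of the 27 tested, whose median log2 fold change was −0.04, beside −0.03 over all genes. Among all genes, 916 were higher and 1365 lower, a split that became 528 and 1821 with scaling by total counts alone, which lowered the median of all genes by 0.18 on the log2 scale. The higher ones were 5 cytosolic enzymes (Vars1, Gars1, Sars1, Cars1 and Rars1) and the mitochondrial Aars2, and the lower ones were 3 cytosolic enzymes (Wars1, Nars1 and Qars1) and the mitochondrial Wars2 and Tars2. All 5 treated libraries exceeded all controls for 6 synthetases (7.98% of all genes did so) and were under all of them for 6 (13.4% of all genes), with Farsa among the former and Hars1 among the latter, neither of them past the threshold.

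**Figure D1:**
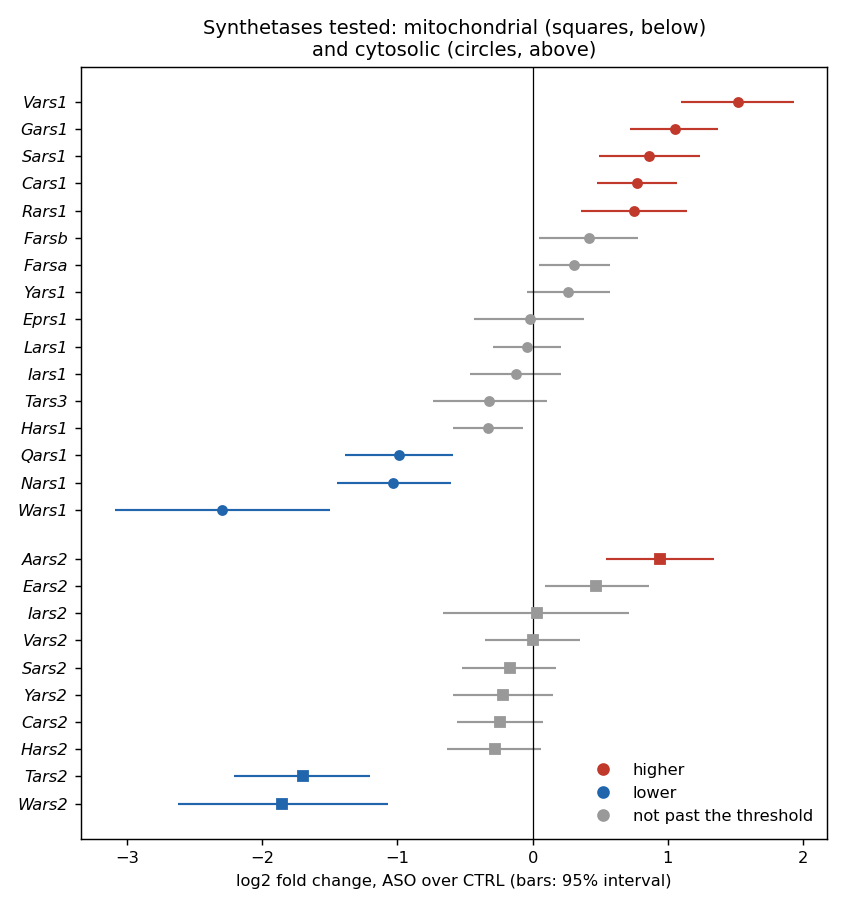
log2 fold change (x axis, ASO over CTRL, with 95% intervals) of 26 synthetases tested, mitochondrial ones as squares below and cytosolic ones as circles above. Red marks the 6 that were higher, blue the 5 that were lower at an adjusted p under 0.05, and the values run from −2.30 (Wars1) to 1.52 (Vars1).

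Valyl-tRNA synthetase, Vars1, showed the largest increase of the group. Its level was 11.8, 18.2, 16.8, 19.5 and 16.8 CPM in the CTRL libraries 1 to 5 and 39.6, 42.5, 61.3, 39.7 and 54.7 CPM in the ASO libraries 1 to 5. Every treated library stood above the highest control, with a log2 fold change of 1.52 ± 0.19 (SE; edgeR adjusted p = 2.6e-04), or 2.86-fold. All of its 699 counts lie on 1 segment of 67 bp at chr17:35235232-35235298 (GRCm39, + strand), 7 bp from the end of the canonical transcript.

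Gars1, the glycyl enzyme of both compartments, was at 75, 71.8, 65.7, 56.6 and 52.2 CPM in CTRL and at 118, 124, 160, 114 and 148 CPM with the ASO. No control reached the lowest treated library, and the log2 fold change was 1.05 ± 0.15 (SE; edgeR adjusted p = 5.2e-04). The counts come from 155 bp at the end of the transcript (chr6:55056331-55056485, + strand).

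Seryl-tRNA synthetase, Sars1, which also charges the tRNA that is later converted for selenocysteine, is counted almost only on 1 segment, which was at 138, 112, 104, 118 and 87 CPM in CTRL and at 179, 161, 264, 189 and 259 CPM with the ASO. The groups did not overlap, and the log2 fold change of the gene was 0.86 ± 0.17 (SE; edgeR adjusted p = 0.0034). This segment holds 99.6% of its counts and lies 1747 bp before the canonical end, at chr3:108333928-108334145 on the minus strand, which is the end of a shorter coding transcript within the same exons.

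Cysteinyl-tRNA synthetase, Cars1, was at 48.1, 55.5, 46.4, 45.4 and 41 CPM in CTRL and at 73.9, 85.4, 86.7, 67.2 and 91.9 CPM with the ASO. Treated libraries were again all above the controls, with a log2 fold change of 0.77 ± 0.14 (SE; edgeR adjusted p = 0.0016). The segment that holds 97% of its counts ends a transcript annotated for nonsense-mediated decay (NMD), the pathway that degrades messages with a premature stop codon, and 60.2% of that segment lies in exons of the canonical transcript.

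Arginyl-tRNA synthetase, Rars1, a member of the multi-synthetase complex, was at 29.2, 37.3, 26.2, 30.7 and 23.6 CPM in CTRL and at 40.6, 37, 57.9, 56.8 and 54.7 CPM with the ASO. The lowest treated library was just under the highest control. Its log2 fold change was 0.75 ± 0.18 (SE; edgeR adjusted p = 0.0088), which fell short of the threshold when only the most distal segment of every gene was counted (0.46, edgeR adjusted p = 0.075).

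Aars2, the mitochondrial alanyl enzyme, was the 1 mitochondrial synthetase that was higher, at 47.6, 43.4, 29.1, 30.7 and 39.9 CPM in CTRL and 70, 68.8, 90.5, 53.8 and 83 CPM with the ASO. The groups did not overlap, and the log2 fold change was 0.94 ± 0.18 (SE; edgeR adjusted p = 0.0029). The glutamyl enzyme Ears2 was next among the mitochondrial ones, with 18.3 to 28.3 CPM in CTRL and 27.5 to 39.7 CPM with the ASO, and its log2 fold change of 0.47 ± 0.18 (SE) did not pass (edgeR adjusted p = 0.061). It passed without CTRL replicate 1 (0.55) and without ASO replicate 4 (0.55), so that 2 mitochondrial enzymes were higher in those fits.

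Wars1, the cytosolic tryptophanyl enzyme, which interferon induces in many cells, had the largest decrease. It was at 33.5, 24.7, 33.6, 36 and 43.8 CPM in CTRL and at 9.66, 10.6, 1.27, 7.1 and 6.13 CPM with the ASO, where replicate 3 had only 3 counts. All treated libraries were below all controls, with a log2 fold change of −2.30 ± 0.36 (SE; edgeR adjusted p = 9.1e-04), or 4.91-fold lower. Its 409 counts lie on a single segment at chr12:108841040-108841539 (minus strand), 15084 bp before the canonical end, where an NMD transcript ends and 36.6% of the bases are exonic. The 4 other Wars1 segments, at the canonical end included, had no counts, so the value describes that segment alone.

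Its mitochondrial counterpart Wars2 was at 9.43, 6.06, 7.9, 10.6 and 16.3 CPM in CTRL and at 3.38, 4.25, 2.11, 2.5 and 1.41 CPM with the ASO. The groups did not overlap, at counts of only 3 to 29 per library, and the log2 fold change was −1.85 ± 0.36 (SE; edgeR adjusted p = 0.0027). Unlike Wars1, it was counted mainly in canonical exons. Of its segments, the one at the canonical end had 3.7 ± 0.841 CPM in CTRL and 1.11 ± 0.82 CPM in treated mice (SD, n = 5 each), too low to be tested on its own.

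Tars2, the mitochondrial threonyl enzyme, was at 26.4, 18.2, 30.6, 31.9 and 27.5 CPM in CTRL and at 8.21, 11.9, 6.77, 7.51 and 6.6 CPM with the ASO. All treated libraries were lower than all controls, with a log2 fold change of −1.70 ± 0.23 (SE; edgeR adjusted p = 4.2e-04). Of its 353 counts, 96.9% lie on an NMD segment 10778 bp before the canonical end, of which 29.2% is exonic. The segments 16 bp from that end share all their bases with other segments and had 0 counts. The decrease of Tars2 could therefore not be read at the end itself.

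Asparaginyl-tRNA synthetase, Nars1, was at 251, 250, 238, 278 and 289 CPM in CTRL and at 127, 166, 70.2, 150 and 128 CPM with the ASO. The groups did not overlap, and the log2 fold change was −1.03 ± 0.20 (SE; edgeR adjusted p = 0.0027). Its main segment, 566 bp before the canonical end and 87.4% exonic, ends an NMD transcript. When tested alone, that segment fell by 0.79 on the log2 scale (edgeR adjusted p = 0.0058). The segments nearer to the canonical end had at most 5 counts each, so the decrease could not be read at the end itself.

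Qars1, the glutaminyl enzyme of the multi-synthetase complex, was at 168, 180, 177, 181 and 201 CPM in CTRL and at 123, 114, 60.5, 72.6 and 87.2 CPM with the ASO. Again no treated library reached a control, and the log2 fold change was −0.99 ± 0.19 (SE; edgeR adjusted p = 0.0023). Within 10 bp of its canonical end it has 9 segments, which overlap each other, and none of them had a count. The segment nearest to that end with a value, 1157 bp upstream, was at 99.6 ± 9.11 CPM in CTRL and 77.1 ± 16.2 CPM in treated mice (SD, n = 5 each) and did not pass (edgeR adjusted p = 0.088).

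**Figure D2:**
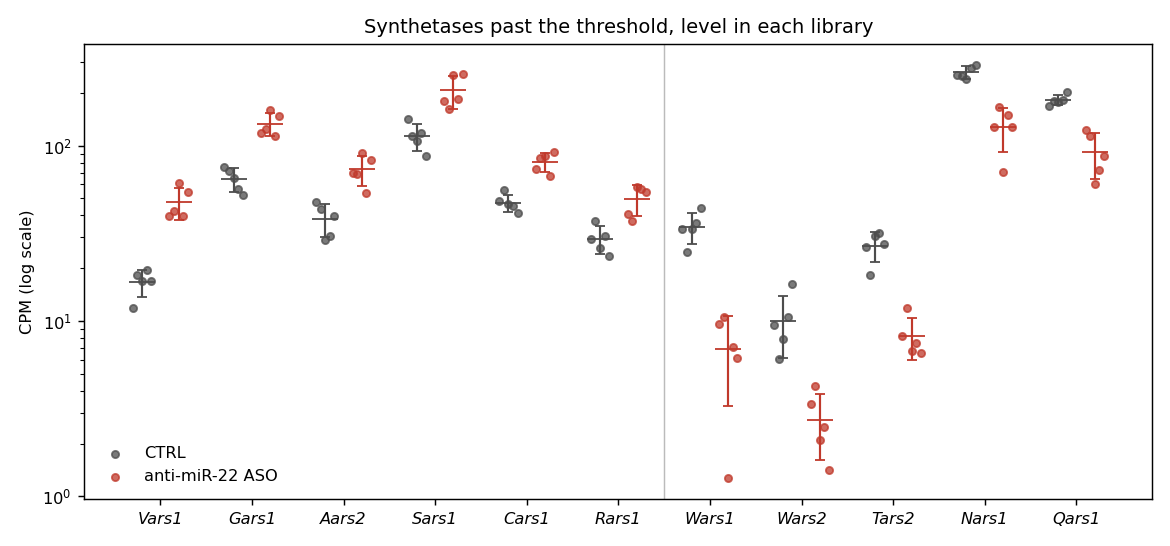
CPM in each library (y axis, log scale) of the 11 synthetases past the threshold, with the 6 higher ones to the left of the line and the 5 lower ones to the right, CTRL in grey and ASO in red. Points are libraries, and bars are the mean ± SD of 5 libraries, with the lowest point that of Wars1 in ASO replicate 3 at 1.27 CPM.

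The 16 other synthetases tested did not pass. Nearest to the threshold were Hars1 (histidine, −0.33 ± 0.12, edgeR adjusted p = 0.053, lower with total-count scaling), Ears2 as above and Farsa (0.31 ± 0.12, edgeR adjusted p = 0.072), the catalytic subunit of the phenylalanyl enzyme. On the called side, Rars1 was the closest. Farsb, the other subunit, was at 67.4 ± 13.8 CPM in CTRL and 90.1 ± 14.6 CPM in treated mice (SD, n = 5 each), with a log2 fold change of 0.42 that did not pass (edgeR adjusted p = 0.078). The remaining 12 had log2 fold changes between −0.32 (Tars3) and 0.26 (Yars1). Tars3, a second cytosolic threonyl enzyme, was between 111 and 173 CPM in CTRL and between 65.1 and 128 CPM with the ASO. Among synthetases of the multi-synthetase complex, Kars1 and Mars1 had no counts, Rars1 was higher, Qars1 was lower, and Eprs1, Iars1 and Lars1 lay between −0.12 and −0.02. By catalytic class, 3 of 14 class I and 3 of 12 class II enzymes tested were higher, while 3 and 2 were lower, with the double enzyme Eprs1 left out, and over all genes 11.7% were higher and 17.5% lower.

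A gene total near 0 did not mean that every part of the message was level. The segments of 26 synthetases had enough counts for at least 1 of them to be tested alone, in a fit over 10658 segments of all genes. A segment is called exonic here where at least 50% of its bases lie in exons of the gene's canonical transcript, and intronic otherwise. Of the 28 exonic segments of synthetases tested, 13 were higher, against 17.5% of all exonic segments, and 4 were lower, against 19.2%. Among the 28, 11 end transcripts annotated for NMD, and all 4 lower ones (in Nars1, Qars1 and Vars2) are among these 11. The share lower among all exonic NMD segments was not formed, so 4 of 11 is not read as particular to the synthetases. Of the 15 intronic segments of synthetases, which all end transcripts annotated for NMD, 13 were lower, against 46.8% of all intronic segments, and 1 was higher, against 9.52%. Ears2 (0.52, edgeR adjusted p = 0.04) and Farsb (0.45, edgeR adjusted p = 0.049) are among the 13, each just past the threshold here and just short of it as a gene. With scaling by total counts, the exonic split became 8 higher and 5 lower. The median log2 fold change was 0.48 over the exonic and −1.78 over the intronic segments of synthetases, beside 0.08 and −0.64 over all genes, so the same separation was present outside the group. The cause of the separation was not tested.

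**Figure D3:**
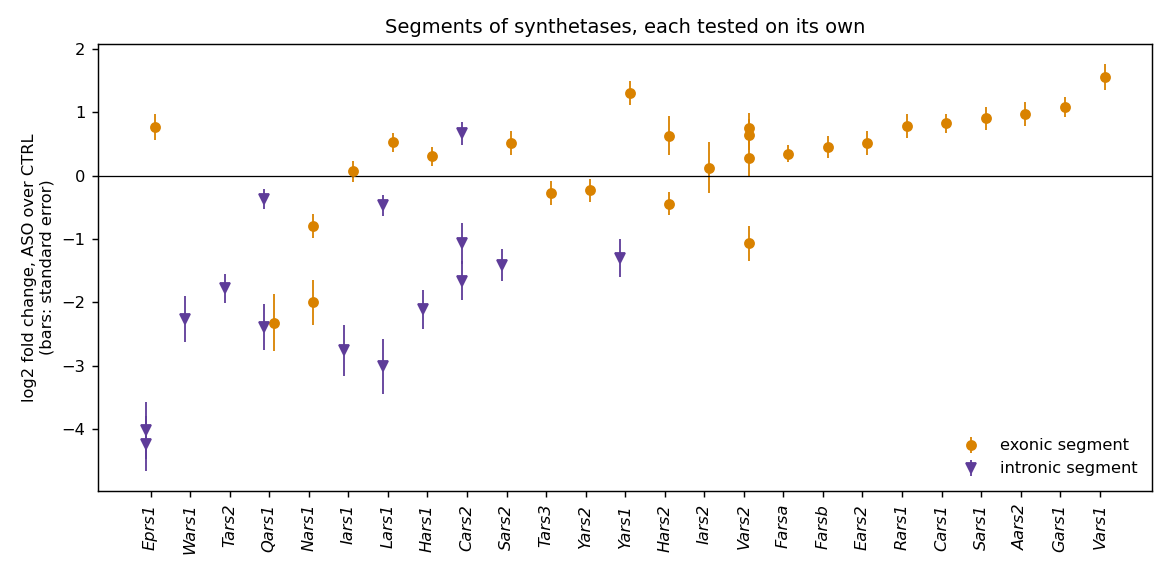
log2 fold change (y axis, ASO over CTRL, with standard errors) of synthetase segments tested, ordered by gene on the x axis. Intronic segments (purple triangles) reach down to −4.23 in Eprs1, and most exonic segments (orange circles) lie above 0.

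Eprs1, which charges both glutamate and proline and belongs to the complex, gave the widest gap. Its 2 intronic segments were at 22.7, 29.8, 44.9, 66.4 and 90.4 CPM and at 20, 29.3, 47.4, 72.3 and 83.6 CPM in CTRL, against at most 4.68 CPM and 3.4 CPM with the ASO. Both fell far below every control, with log2 fold changes of −4.02 ± 0.45 (SE; edgeR adjusted p = 5.5e-05) and −4.23 ± 0.43 (SE; edgeR adjusted p = 3.4e-05), while the controls themselves differed several fold from each other. The exonic segment of Eprs1 was at 163, 168, 126, 123 and 117 CPM in CTRL and at 175, 237, 365, 204 and 211 CPM with the ASO. It rose by 0.77 ± 0.21 on the log2 scale (SE; edgeR adjusted p = 0.0095), while the sum over the gene was −0.02.

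Yars1, the tyrosyl enzyme, likewise had opposite changes within the gene. Its segment at the canonical end (chr4:129112901-129113400, + strand) was at 40.4, 35.7, 30.1, 22.3 and 31.1 CPM in CTRL and at 64.1, 67.7, 97.3, 73.8 and 92.3 CPM with the ASO. This segment rose by 1.30 ± 0.19 on the log2 scale (SE; edgeR adjusted p = 2.2e-04). The intronic segment 9033 bp upstream was at 36.4 to 61 CPM in CTRL and at 7.11 to 29.6 CPM with the ASO, a log2 fold change of −1.30 ± 0.30 (SE; edgeR adjusted p = 0.004). For the gene as a whole, Yars1 came to 0.26 (edgeR adjusted p = 0.17).

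The leucyl enzyme Lars1 rose by 0.53 on the log2 scale (edgeR adjusted p = 0.014) on an exonic segment that ends an NMD transcript 63 bp before the canonical end, and the segment nearest that end has 0 counts. Its intronic segments were at −0.47 and −3.01, both past the threshold. The isoleucyl enzyme Iars1 was at 0.07 in its end segment, which did not pass, and at −2.76 in its intronic one, which did. The end segment of Hars1 was at 0.31, also short of the threshold, beside −2.11 in its intronic segment (edgeR adjusted p = 2.3e-04). Of the mitochondrial enzymes, Sars2 showed 0.52 on its exonic and −1.41 on its intronic segment, both past the threshold. In Cars2, the mitochondrial cysteinyl enzyme, 2 intronic segments were lower (−1.07 and −1.66), of which 9.2% and 16.8% are exonic. The other, at 0.67, was the 1 intronic synthetase segment that was higher, and 39.8% of it is exonic. Vars2, the mitochondrial valyl enzyme, was at 0.65, 0.75 and 0.28 in 3 exonic segments 0 to 923 bp before its end, of which the value of 0.75 passed, and at −1.07 in another, 4054 bp upstream, which was lower.

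The ratio of exonic to intronic counts within a gene, which does not depend on library size, could be formed for 9 synthetases with at least 50 counts on each side. It was higher in all treated libraries than in all controls for 7 of the 9, as it was for 37.7% of 1376 genes. It was lower for 1, Qars1, as for 5.38% of genes. In that gene 65.7% of the counts lie on the intronic segment 1157 bp before the end, of which 47.4% is exonic. Its exonic segment with 397 counts is 55.5% exonic. Both of these segments lie near the 50% cutoff, so the Qars1 ratio hardly sets exons against introns. Iars2 overlapped between the groups. In Eprs1, the log2 ratio was 1.93, 1.50, 0.45, −0.17 and −0.57 in CTRL and 4.64, 4.91, 5.93, 5.64 and 5.53 with the ASO. The median difference between the group means was 2.47 on the log2 scale over the 9 synthetases and 0.82 over all genes. The share of synthetase counts on intronic segments was 20.2% to 30.8% in CTRL and 7.6% to 13.3% with the ASO, while over all genes that share overlapped, at 15.6% to 18.1% and 14.3% to 17.2%. That share is pooled over counts. The median log2 ratio over the 1376 genes did not overlap, at 0.44 to 1.08 in CTRL and 1.53 to 1.93 with the ASO.

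**Figure D4:**
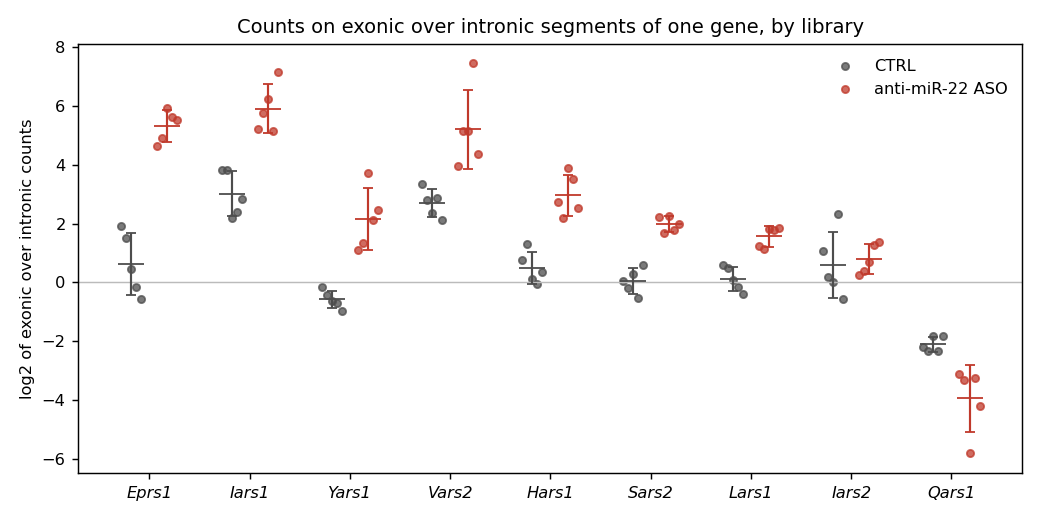
log2 ratio of exonic to intronic counts (y axis) of 9 synthetases in each CTRL (grey) and ASO (red) library, with bars for the mean ± SD of 5 libraries. The ratio is higher with the ASO for the 7 genes from Eprs1 to Lars1, overlaps for Iars2 and is lower for Qars1.

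When the counts of intronic segments were left out of every gene, 8 of the 16 cytosolic synthetases tested were higher and 2 lower, against 10.5% and 15.1% of all genes in that fit. Eprs1 (0.66), Lars1 (0.42) and Yars1 (1.19) joined the higher ones in that fit, and Nars1 (−1.11) and Qars1 (−2.38) stayed lower. Of the 410 exonic counts of Qars1, 397 lie on an NMD segment 2982 bp before its canonical end, of which 55.5% is exonic. Its value therefore describes that segment and not the end of the message. Aars2 (0.87) and Wars2 (−1.90) were the mitochondrial enzymes called, and Wars1 and Tars2 had no value left. The increases of Vars1, Gars1, Sars1, Cars1, Rars1 and Aars2 thus rest on exonic segments, and the decreases of Wars1 and Tars2 on intronic ones.

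To set the compartments side by side within the same library, the log2 ratio of the cytosolic synthetase to its mitochondrial counterpart was formed for the 8 amino acids with both genes tested. These ratios carry no correction for segment length, so they are read between groups and not as relative abundance. In exact permutation tests (two-sided, every labelling of the 10 libraries), where 0.0079 is the smallest p they can give, 4 of the 8 ratios reached that value. Among single genes, all treated libraries were above all controls in 7.98% and below them in 13.4%. No such share was formed for ratios of 2 genes, so 4 of 8 is not read as unusual. Vars1 over Vars2 was −1.50 ± 0.39 in CTRL and −0.03 ± 0.21 in treated mice (SD, n = 5 each; exact permutation p = 0.0079). Sars1 over Sars2 rose from 1.33 ± 0.39 to 2.35 ± 0.33 and Cars1 over Cars2 from 0.04 ± 0.30 to 1.02 ± 0.18 (SD, n = 5 each; exact permutation p = 0.0079 for both). In these 3 pairs the cytosolic enzyme was itself higher. Tars3 over Tars2 went from 2.32 ± 0.49 to 3.59 ± 0.44 (SD, n = 5 each; exact permutation p = 0.0079), with the decrease on the side of Tars2. Wars1 over Wars2, which were both lower, went from 1.72 ± 0.23 to 0.96 ± 0.81 (SD, n = 5 each; exact permutation p = 0.016), with ASO replicate 3 at −0.47 and the others between 1.15 and 1.58. That p rose to 0.056 in the exact permutation test without CTRL replicate 2 or without CTRL replicate 3. Yars1 over Yars2 differed by 0.47 (exact permutation p = 0.056, or 0.0079 without CTRL replicate 5), and the histidine and isoleucine pairs differed by −0.05 and −0.10, within the spread of the libraries. Intronic segments hold 99.9% of the counts of Cars2, 34.4% of those of Sars2, 7.75% of those of Vars2 and 100% of those of Tars2, and their part in these ratios was not tested. On the most distal segments alone, Vars1 over Vars2 differed by 0.87 (exact permutation p = 0.0079). The p-values of the 8 pairs are unadjusted.

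**Figure D5:**
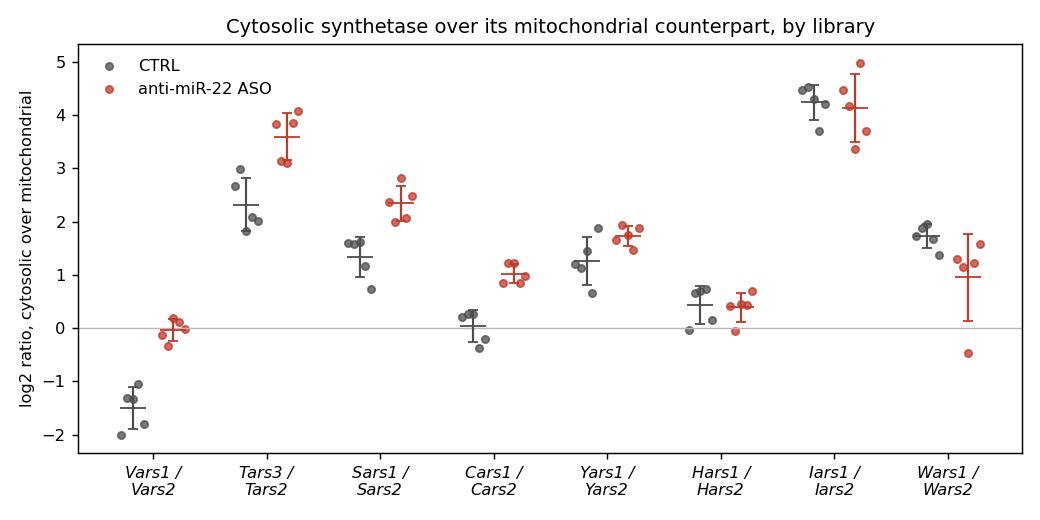
log2 ratio of the CPM of a cytosolic synthetase to that of its mitochondrial counterpart (y axis) for 8 amino acids in each CTRL (grey) and ASO (red) library, with bars for the mean ± SD of 5 libraries. The groups separate for valine, threonine, serine and cysteine, and overlap for tyrosine, histidine, isoleucine and tryptophan.

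The factors that work with the synthetases were read from the fit on whole genes, in which over all genes 11.7% were higher and 17.5% lower. Of 6 partners of the synthetase complexes, Aimp1 and Aimp2 had 0 counts and Eef1e1 only 2. Eef1g, a subunit of the elongation factor that binds Vars1, was the 1 of 3 tested that was higher, at 132 to 184 CPM in CTRL and 271 to 432 CPM with the ASO (log2 fold change 1.06 ± 0.15 SE, edgeR adjusted p = 5.3e-04), and Eef1b2 (0.27) and Eef1d (0.02) did not pass. Of 16 genes tested that handle or proofread charged tRNA, 2 were higher and 0 lower by edgeR (median log2 fold change 0.17), with 0 lower also at an unadjusted p under 0.05, in DESeq2 and in limma-voom, while 1 was higher in DESeq2 and 2 in limma-voom. The 2 higher by edgeR, a share near the 11.7% of all genes, were Eef1a2, the muscle form of the factor that carries charged tRNA to the ribosome (0.98 ± 0.20 SE, edgeR adjusted p = 0.0036), and the nuclear exporter Xpo5 (0.43). Eef1a1, its widely expressed form, was at −0.28 and did not pass.

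Many cytosolic synthetase genes are transcribed through ATF4, the factor of the amino acid response, which acts downstream of eIF2 kinases and binds C/EBP-ATF response elements. Atf4 itself was higher, at 115 ± 15.9 CPM in CTRL and 255 ± 76.2 CPM in treated mice (SD, n = 5 each; log2 fold change 1.15, edgeR adjusted p = 0.0013). Of 20 genes tested from the response, 2 were higher and 3 lower (median 0.14), beside 11.7% and 17.5% of all genes. Beyond Atf4 the mitochondrial alanine transaminase Gpt2 was higher (1.51), and Herpud1, a gene of the degradation of proteins from the endoplasmic reticulum (−1.22), the mitochondrial folate enzyme Aldh1l2 (−1.10) and the ATF4 partner Cebpg (−1.03) were lower. Ddit3 (0.26), Chac1 (−0.47) and Psat1 (−1.01) did not pass, and Asns had 0 counts. Of 13 genes tested of the eIF2 kinases and the eIF2 machinery, 3 were higher (Eif2s3x, Eif2b3 and Ppp1r15b) and 2 lower (Eif2b1 and Eif2b4, with 70.3% and 61.9% of their counts on intronic segments), beside the same 11.7% and 17.5%.

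On the side of the tRNA itself, 1 of 15 tRNA processing genes tested was higher and 2 lower, and for RNA polymerase III, which transcribes tRNA genes, 3 of 17 were higher and 3 lower, where 11.7% and 17.5% of all genes were. The CCA-adding enzyme Trnt1, which completes the end that the synthetases charge, was at −0.61 (edgeR adjusted p = 0.011), and 47.2% of its counts are intronic. The tRNase Z gene Elac1, whose product cuts off the 3′ trailer, was at 0.58 (edgeR adjusted p = 0.032), and the RNase P subunit Pop4 at −0.63, with all counts intronic. In RNA polymerase III transcription, Gtf3a (0.79), Brf1 (0.76) and Polr3e (0.49) were higher, and Gtf3c1 (−2.15, 64.4% intronic), Polr3c (−1.23) and Brf2 (−0.81) were lower.

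The letters in the 3′UTRs and promoters of the synthetases were searched because the ASO binds miR-22, which represses messages through its seed, bases 2 to 8 from the 5′ end. The mature miRNA lies at chr11:75463772-75463793 on the + strand (RefSeq, GRCm38.p6), with the seed in capitals:
mmu-miR-22-3p: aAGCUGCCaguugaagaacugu
The heptamer GGCAGCT, which pairs with the seed, was found in the canonical 3′UTR of 6 of the 27 synthetases tested (22.2%), beside 17.8% of 7813 genes tested. The median 3′UTR length was 923 bases in the synthetases and 1441 in all of these genes. The 6 were Gars1, Cars1, Sars1, Yars1, Cars2 and Wars2, of which 3 were higher and 1 lower, where 11.7% and 17.5% of all genes were. The share called among all genes with the heptamer was not formed, so 3 of 6 is not read as unusual. The windows are shown for those called and for Yars1, which holds 2 matches, with the matching letters in capitals (GRCm39, 5′ to 3′ on the strand of the gene). They lie at chr6:55056328-55056357 (+), chr7:143110614-143110643 (−), chr3:108332919-108332948 (−), chr4:129112541-129112570 (+), chr4:129113073-129113102 (+) and chr3:99124244-99124273 (+), in this order:
Gars1: tgagaacagctGGCAGCTtatgaccatcgt
Cars1: atgtccattctGGCAGCTgtggctccatag
Sars1: ctgcctgctgtGGCAGCTggctgcccaggc
Yars1, first match: cttcttcccttGGCAGCTgacttgagaaat
Yars1, second match: tgtgagtgcagGGCAGCTgctacgcttacc
Wars2: actcaagtcaaGGCAGCTttcctcccacag
The match of Gars1 starts at base 9 of a 3′UTR of 155 bases, within the segment that rose, and the second match of Yars1 lies within its end segment, which rose by itself. The matches of Cars1 and Sars1 lie downstream of the segments that hold 97% and 99.6% of their counts, and within no segment of these genes. The match of Wars2 lies in a gene that was lower. A match of letters is a description and not a site.

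Promoters from 250 bases before to 50 after the start were at hand for 28 of the 38 synthetases (29 promoters, RefSeq, GRCm38.p6). The letters TGATGNAA of the C/EBP-ATF response element, on either strand, were found in 5 of the 29 (17.2%) and in 3.97% of all 32851 promoters. Of these 5 genes, Aars1 and Tars1 were not tested, Gars1 was higher, Yars1 was higher on its end segment and Iars1 did not pass. Of the 11 synthetases called as genes, Vars1, Cars1, Rars1, Nars1 and Wars1 have no promoter in the table, and Sars1, Aars2, Wars2, Tars2 and Qars1 hold no match in theirs. The windows of the tested genes with a match are shown, with the motif in capitals, at chr6:55037960-55037989 (+), chr4:129189895-129189924 (+) and chr13:49682126-49682155 (+):
Gars1: tggctgcgctaTTTCATCAtgcaccgggcg
Yars1: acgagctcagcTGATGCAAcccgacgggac
Iars1: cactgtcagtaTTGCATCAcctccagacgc
The E-box CACGTG, the same on both strands and not overlapping the first motif in these windows, was found in 5 of the 29 (Aars1, Ears2, Farsb, Iars1 and Tars1) and in 7.15% of all promoters, and of these 5 genes the 3 tested did not pass as genes. Ears2 (0.52) and Farsb (0.45) were higher on an exonic segment tested alone (edgeR adjusted p = 0.04 and 0.049), and Iars1 was not (0.07).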

How the data were processed

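Reads were trimmed by the authors (fastp), mapped by STAR on GRCm39 and assigned as pairs by featureCounts to exons. The paper names Gencode M25 as the annotation, which was not checked here. Only the final 500 bp of each 3′UTR were counted. The deposited values are unnormalized counts on 52423 segments. No strand option is given in the sources used here, and 4 per-sample columns that match no label were not used. The 62 segment identifiers missing from GENCODE M39 hold 0.0197% of the counts and were kept as genes of their own.

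Segments were summed per gene and tested with edgeR 4.0.16 in R 4.3.3 (TMM, filter on low counts by group, quasi-likelihood test, Benjamini-Hochberg adjustment, threshold 0.05). Segments were also tested one by one. DESeq2 1.42.0 with and without ashr 2.2.63, limma-voom (limma 3.58.1), other scalings and filters, the most distal segment alone, libraries drawn down to 1606909 counts, a block for the replicate number and fits without each library in turn were alternatives. The split into exonic and intronic segments and its fit were added after seeing the data. Ratios within a gene had 0.5 added to each count, and log2 CPM for the pair ratios used a prior count of 2. On counts simulated for this comparison, edgeR recovered 41 of 98 genes changed by 1 on the log2 scale and 88 of 92 changed by 2, with 7 false calls among 7813 genes.

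The members, gene lists and marker lists were chosen with earlier results of these data known. All synthetases enter the counts and sums, but 2 of them are not reported here one by one. Those past the threshold are given in every library, and from each list up to 8 genes past the threshold are named, while list genes that did not pass were named after their values were seen. p-values cover the spread between these 10 mice. The other steps ran in Python 3.11.15 (pandas 2.3.3, numpy 2.4.6, matplotlib 3.10.9). Coordinates are 1-based.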

Additional observations from a re-analysis of the deposited data

Results flagged for a closer look

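One value stood far from the others of its group by Dixon's criterion. Tars3, the second cytosolic threonyl enzyme, was at 65.1 CPM in ASO replicate 3, while the other treated libraries were between 113 and 128 CPM, a gap of 0.805 of the group's whole range where 0.71 is critical for 5 libraries. Chance passes this limit in about 1 in 20 groups, and 54 groups of 5 were examined. The same library was also the lowest treated one for Nars1 (70.2 CPM), Qars1 (60.5 CPM) and Wars1 (1.27 CPM), and without it their log2 fold changes were −0.83, −0.84 and −1.99, all past the threshold.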

How the results depend on the processing

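The 11 synthetases called kept their direction under all alternatives in which they had a value, and all stayed past the threshold apart from Rars1 on the most distal segment alone (0.46). With that setting, which tests fewer genes, 3 cytosolic synthetases were higher and 0 lower, 0 mitochondrial ones were lower, and the medians were 0.43 (cytosolic) and 0.24 (mitochondrial). With exonic segments only, 8 cytosolic enzymes were higher, 1 mitochondrial one was lower, and the medians were 0.38 and 0.06. Scaling by total counts gave medians of −0.21 and −0.37, with 8 exonic and 0 intronic segments higher, and 4 cytosolic and 3 mitochondrial enzymes lower, Hars1 (−0.52, edgeR adjusted p = 0.0059) and Cars2 (−0.42, edgeR adjusted p = 0.037) having joined. Hars1 also passed with at least 10 counts in every library (−0.36, edgeR adjusted p = 0.038) and without CTRL replicate 1 (−0.37). With RLE, with upper quartile scaling, without the 20 highest genes and in the libraries drawn down to the smallest total, 2 mitochondrial synthetases were higher, and with at least 10 counts in every library 1 was lower, as were 5 intronic segments. Leaving out single libraries gave 1 to 2 mitochondrial enzymes higher.

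The values that changed sign belong to genes or ratios that had not passed. Eprs1 was at 0.00 without a filter, 0.01 with RLE, without the 20 highest genes and with ashr, 0.02 in DESeq2, 0.07 with upper quartile, 0.43 on the most distal segment and 0.66 on exonic segments. Lars1 was at 0.05 with upper quartile, 0.00 in both DESeq2 fits and 0.42 on exonic segments, Hars1 at 0.20 and Sars2 at 0.41 on exonic segments, and Hars2 at 0.30 and Sars2 at 0.18 on the most distal one. Iars2 was at −0.17 with total counts, −0.03 in limma-voom and −0.20 on the most distal segment, and Vars2 at −0.18 with total counts, −0.03 with at least 10 counts, 0.00 in limma-voom and −0.06 when drawn down. Over the fits that leave out 1 library, Eprs1 ranged from −0.17 to 0.08, Iars1 from −0.20 to 0.01, Iars2 from −0.14 to 0.21, Lars1 from −0.09 to 0.00 and Vars2 from −0.05 to 0.12. The ratio of Hars1 to Hars2 ranged from −0.17 to 0.06 and that of Iars1 to Iars2 from −0.31 to 0.09. The cause of these changes was not tested.

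The replicate numbers gave no pairing, since the deviations of same-numbered libraries correlated between −0.427 and 0.164. In the fit with a replicate block, 663 genes were higher and 1175 lower, the counts of synthetases called were 5 and 3 (cytosolic) and 1 and 2 (mitochondrial), and Iars2 was at −0.01.

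Depth and bases shared with other segments both limit what the low genes can show. The synthetases under the filter had few counts in all (78 for Nars2), and the 45 segments at 0 counts, of which 36 have no base of their own, cannot tell an absent message from one that was not assigned.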
